A study of Homo sapiens with 30 samples.

Results

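The data described here are those of 10 genes of the BCL2 family of cell death regulators, from 5 established cell lines of human breast cancer treated with the recombinant growth factor BMP4 (bone morphogenetic protein 4), a secreted ligand related to transforming growth factor beta. The genes were BCL2, BCL2L1, MCL1, BAX, BAK1, BCL2L11, BBC3, PMAIP1, BIK and BMF. All probes carrying 1 of these names on a whole human genome oligonucleotide array were taken, which gave 22 of the 41000 probes and 10 of the 30484 genes. Cells of HCC1419, HCC1954, SK-BR-3, ZR-75-30 and MDA-MB-361 were collected at 6 times after BMP4 or vehicle had been given (30 min, then 1, 3, 6, 12 and 24 h), and each of the 30 arrays held 1 line at 1 time point, with RNA of BMP4-treated cells in Cy5 and RNA of vehicle-treated cells in Cy3. Treatments were run in triplicate and pooled, so an array holds 1 pooled RNA per channel, and the replicates of a time point are the 5 lines.

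BCL2 family proteins decide whether the outer mitochondrial membrane stays intact. The pro-survival members hold the pore-forming effectors in check, and the BH3-only members bind the pro-survival proteins or the effectors and so promote apoptosis. Much of the control of the BH3-only members is transcriptional, and BMP signaling acts through SMAD transcription factors.

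Ratios are given as log2 of the BMP4 signal over the vehicle signal, loess-normalized array by array, so that 1 stands for a 2-fold higher signal with BMP4. The late change is the mean of 3, 6, 12 and 24 h minus the value at 30 min, with the line as a block, and a probe was called at a limma adjusted p under 0.05 over all probes. The dyes were not swapped, so a ratio tested against 0 also holds any dye bias of its probe, whereas a bias shared by all arrays cancels in the late change. Fewer expressing cells and less RNA per cell cannot be told apart in such bulk samples.

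In the Cy3 channel 58.9% to 70.6% of probes were well above background on an array, and no member value was missing. The slope of observed on expected log ratios of the spike-in controls was 0.525 to 0.877, so ratios were compressed. It was 0.525 to 0.679 on the MDA-MB-361 arrays and 0.644 to 0.877 on the SK-BR-3 arrays, so the compression was uneven. The 7 luminal breast carcinoma markers tested (KRT8, KRT18, KRT19, EPCAM, ERBB2, GATA3 and CDH1) were well above background on 24 to 30 of the 30 arrays, and CDH1 was not on any of the 6 SK-BR-3 arrays. Of 6 markers of other cell types, PTPRC was above background on 0 arrays, 4 markers were on 4 to 6 arrays, and COL1A1 was on 28. Of 5 direct BMP targets used as a control, ID1, ID2, ID3 and SMAD6 had a called late rise, with a median of 0.96 over the list.

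BMF, a BH3-only protein that binds the pro-survival members, was the one gene of the 10 with a called change over time. Its transcript rose in all 5 lines. Its single probe, A_23_P379649 (chromosome 15, 38167742 to 38167801 on the minus strand, hg18), was well above background on all 30 arrays. To show the region upstream of the gene, the 250 bases before each of the 2 BMF starts listed by RefSeq are given below, 5′ to 3′ on the minus strand of GRCh38.p14. They lie at chr15:40108880-40109129 and chr15:40106967-40107216, and capitals mark matches to the SMAD-related motifs searched.
BMF start 1: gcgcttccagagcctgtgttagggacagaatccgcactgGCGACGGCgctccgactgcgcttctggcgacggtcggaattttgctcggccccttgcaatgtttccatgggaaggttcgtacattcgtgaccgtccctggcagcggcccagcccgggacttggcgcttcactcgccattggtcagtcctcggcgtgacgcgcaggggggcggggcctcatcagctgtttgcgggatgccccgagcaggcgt
BMF start 2: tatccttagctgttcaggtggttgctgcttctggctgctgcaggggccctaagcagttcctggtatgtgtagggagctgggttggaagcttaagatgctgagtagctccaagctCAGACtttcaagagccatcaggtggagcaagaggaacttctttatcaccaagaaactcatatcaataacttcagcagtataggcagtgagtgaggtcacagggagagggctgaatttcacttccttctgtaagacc

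The motifs were GGCGCC, GCCGNCGC and CAGAC, read on both strands, with overlaps between matches allowed. The first BMF start had 1 match to GCCGNCGC and the second had 1 match to CAGAC. Of 35116 RefSeq windows of the same length, 16.4% held GGCGCC, 12.9% held GCCGNCGC and 38.0% held CAGAC. RefSeq starts were matched for 8 of the 10 genes, and of their 10 windows 3 held GGCGCC, 4 held GCCGNCGC and 5 held CAGAC. These matches describe the letters in the windows only.

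The BMF ratio was below 0 in 4 of 5 lines at 30 min and above 0 in all 5 from 3 h on. At 30 min MDA-MB-361 had 0.11, HCC1419 had −0.07, HCC1954 had −0.14, SK-BR-3 had −0.29 and ZR-75-30 had −0.30. In the same order the lines had 0.85, 0.44, 0.20, 0.58 and 0.66 at 3 h, and 1.12, 0.40, 0.49, 0.70 and 0.78 at 24 h. The ranges at 30 min and at 24 h did not overlap. Between them the lines took different courses. MDA-MB-361 was higher at each later time, through 0.55, 0.85, 1.00 and 1.07 between 1 and 12 h. ZR-75-30 was already at 0.83 after 1 h, when HCC1419 and SK-BR-3 were at 0.07 and HCC1954 was at −0.01, and then went through 0.66, 0.36 and 0.76. SK-BR-3 (0.41 and 0.31) and HCC1954 (0.20 and 0.26) were lower at 6 and 12 h than at 24 h, and HCC1419 peaked after 12 h, with 0.57.

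**Figure D1:**
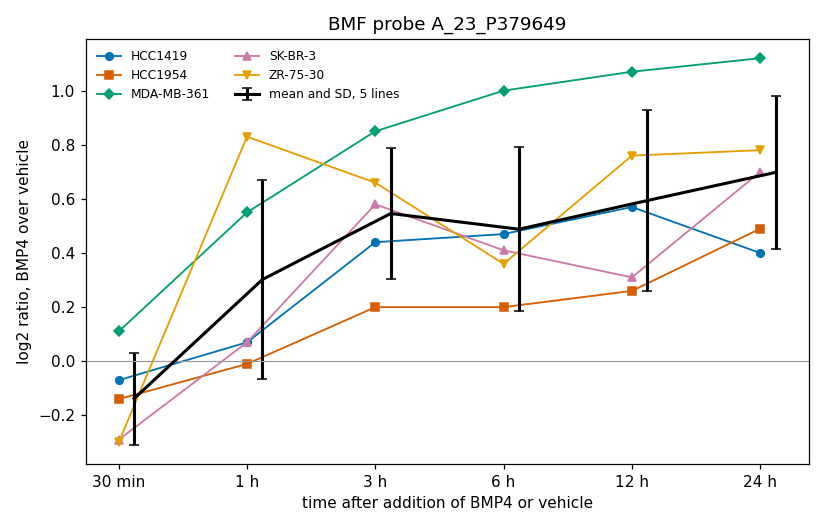
Log2 ratio of BMP4 over vehicle of the BMF probe (vertical axis) against time after addition (horizontal axis, categories not to scale), 1 coloured line per cell line with 1 array per point, and the mean ± SD over the 5 lines in black. All 5 lines are above 0 from 3 h on, and MDA-MB-361 is the highest from 3 h on.

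The late change of BMF was 0.72 ± 0.09 (SE, limma adjusted p = 0.000192), from 0.43 in HCC1954 through HCC1419 (0.54), SK-BR-3 (0.80) and MDA-MB-361 (0.91) to 0.94 in ZR-75-30. It ranked number 4 of all probes by p-value. Over all probes 0.0927% had a called late rise and 0 had a called late fall, so that 1 of the 22 probes is above that share, with a single gene behind it. In a moderated F test of limma over all time points BMF was again the 1 member probe called (adjusted p = 0.00482, beside 0.0902% of all probes). Against 0 it was called 3 h (0.55 ± 0.25, SD, n = 5 lines, limma adjusted p = 0.0467), 12 h (0.60 ± 0.33, adjusted p = 0.0223) and 24 h (0.70 ± 0.28, adjusted p = 0.0025) after addition. It was not called at 30 min, 1 h (0.30 ± 0.37, limma adjusted p = 0.259) or 6 h (0.49 ± 0.30, adjusted p = 0.148). No other member probe was called against 0 at any time. Of all probes, in order of time, 0.0805%, 0.973%, 0.349%, 0.176%, 0.463% and 1.58% were called in either direction and 0.0585%, 0.612%, 0.29%, 0.139%, 0.351% and 1.06% were called higher.

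The signal of BMF in the vehicle channel alone had a late change of 0.35 ± 0.24 (SE, limma adjusted p = 0.617). Without the line as a block the late change of BMF was the same in size, but it was not called (limma adjusted p = 0.102). Arrays were scanned on 7 days. In SK-BR-3 the 30 min array and all late arrays were scanned on different days, so for that line scan day and time cannot be told apart. Within 1 scan day the late arrays minus the 30 min array of BMF gave 0.54 for HCC1419 (4 late arrays), 0.91 for MDA-MB-361 (4), 1.01 for ZR-75-30 (2) and 0.40 for HCC1954 (1). In HCC1954, MDA-MB-361 and SK-BR-3 no late array shared a slide with the 30 min array. For these lines slide and time therefore cannot be told apart, also within a scan day. Without SK-BR-3 the late change was 0.70 (limma adjusted p = 0.00594), and without MDA-MB-361 it was 0.67 (adjusted p = 0.0267). The test over the 5 differences between time points was lost more easily, with adjusted p = 0.0806 without HCC1419, 0.316 without MDA-MB-361 and 0.076 without SK-BR-3 in limma.

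The size of the BMF ratio differed between lines (limma moderated F test over 4 differences, adjusted p = 0.00256). The difference was not called without MDA-MB-361 (limma adjusted p = 0.232) or with a single factor per array in place of loess (0.093). Over its 6 time points the ratio averaged 0.78 ± 0.39 (SD) in MDA-MB-361, 0.52 ± 0.43 in ZR-75-30, 0.31 ± 0.25 in HCC1419, 0.30 ± 0.36 in SK-BR-3 and 0.17 ± 0.22 in HCC1954. A difference in the late change itself between lines was not called (limma adjusted p = 0.888). The 3 other genes whose ratios were most like that of BMF over the 30 arrays were LOC730259 (Pearson r = 0.88), SMAD6 (r = 0.84), an inhibitory SMAD induced by BMP signaling, and DUSP2 (r = 0.84), a phosphatase of MAP kinases. The arrays share their lines, so these values are descriptions. Of 26614 probes compared, 13 had an r over 0.8 with BMF.

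The other 21 probes had no called late change, and BMF was the one member probe with an unadjusted p under 0.05 in limma, beside 4.99% of all probes (3.37% higher and 1.62% lower). Their late changes ran from −0.17 for MCL1 and PMAIP1 to 0.59 for 1 BBC3 probe, with the lowest limma adjusted p at 0.965. For 18 of the 21 the 95% interval of the late change lay within 0.5 of 0 on the log2 scale. One probe, BCL2L11 A_23_P154426, was below 0 in all 5 lines, with −0.12 ± 0.08 (SE), as were 2.38% of all probes, and BMF was the one above 0 in all 5, as were 3.95%. The median late change over the 10 genes, each taken by its probe most often above background and brightest, was 0.06, beside 0.01 over all probes. The heat map of all 22 probes shows the BMF row as the one that turns to higher values in every line.

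**Figure D2:**
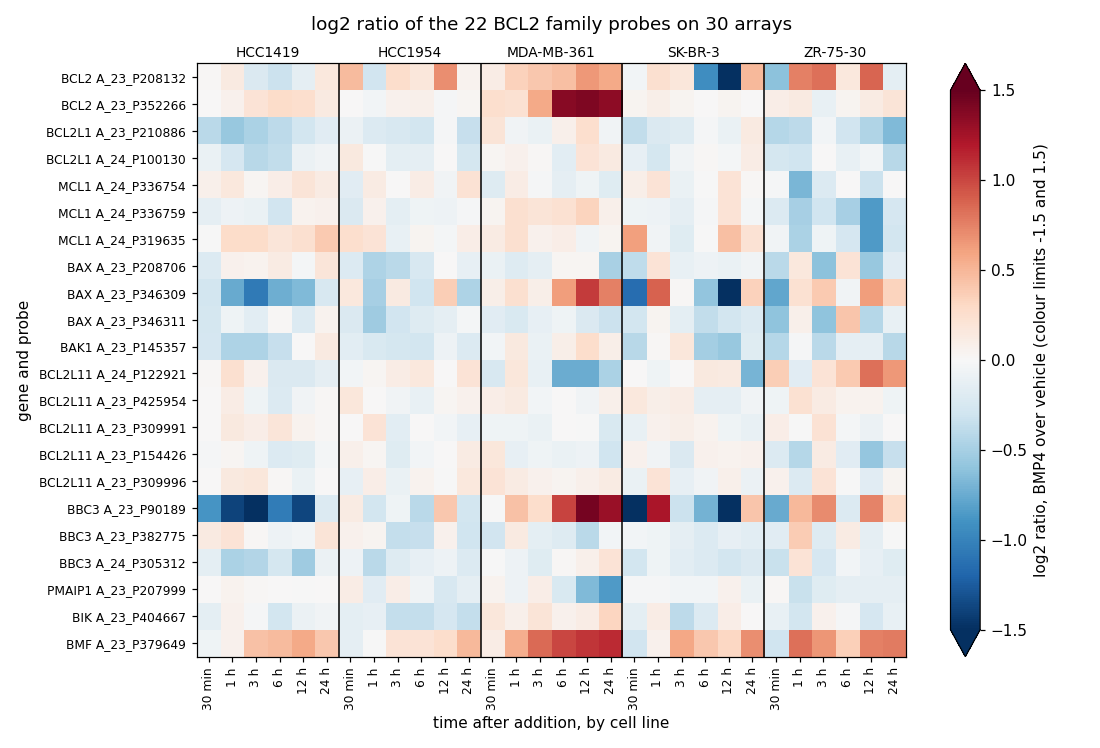
Log2 ratio of BMP4 over vehicle (colour) of the 22 probes (rows) on the 30 arrays (columns, by line and then by time). BMF is above 0 in every line from 3 h on, BCL2 A_23_P352266 is high in MDA-MB-361 from 6 h on, and BBC3 A_23_P90189 and BAX A_23_P346309 swing in both directions.

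Differences between lines were more common than changes over time. The ratio differed between lines for 8 of the 22 member probes (limma moderated F test), or 36.4%, beside 22.2% of all probes. The 8 belonged to BCL2, BCL2L1, MCL1 (2 probes), BCL2L11, BBC3, BIK and BMF. A late change that differed between lines was called for 0 of the 22 probes, beside 0.0588% of all probes, and the smallest unadjusted limma p among the 22 was 0.0163, for BCL2 A_23_P352266. The 6 arrays of a line are its time points and share its slides, and no slide held more than 1 line, so slide and line cannot be told apart. Without MDA-MB-361, 0 of the 22 probes were called, beside 0.234% of all probes, although for some, such as MCL1, another line stood apart. When a single factor per array replaced loess, 0 were called, beside 0.0244% of all probes. With dim probes left out 8 member probes were called beside 36.1% of all probes, so the share among the members is near that of well-measured probes.

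BCL2, the founding pro-survival member, had 2 probes annotated to different transcripts. Probe A_23_P352266 (chromosome 18, 58941703 to 58941762, hg18), annotated to the alpha transcript, was printed on 10 spots per array, with a median SD of 0.08 between them. It was well above background on all 6 arrays of HCC1419 and of MDA-MB-361 and on 0 of the 18 arrays of the other lines, where its ratio had only background on both sides. In MDA-MB-361 its ratios from 30 min to 24 h were 0.25, 0.23, 0.57, 1.36, 1.40 and 1.34. The last 3 arrays were thus above 2-fold and the first 2 were not above 0.25. In HCC1419 it was 0.00, 0.07, 0.20, 0.27, 0.25 and 0.13 in the same order, all below every MDA-MB-361 array from 3 h on. The difference between lines was called (limma adjusted p = 0.00185). The late change was 0.92 in MDA-MB-361 and 0.21 in HCC1419, all on 1 scan day for each line, and it was 0.22 ± 0.12 (SE) over the 5 lines (limma adjusted p = 0.965). In MDA-MB-361 the 30 min and 1 h arrays were on another slide than the later arrays, so slide and time cannot be told apart.

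PMAIP1 (NOXA), a BH3-only protein that binds MCL1, ran the other way in MDA-MB-361. Its probe A_23_P207999 (chromosome 18, 55721258 to 55721317, hg18), also on 10 spots with a median spot SD of 0.08, gave 0.05, −0.08, 0.10, −0.23, −0.66 and −0.85 from 30 min to 24 h in that line. It lay between −0.33 and 0.02 in ZR-75-30, between −0.24 and 0.11 in HCC1954, and between −0.10 and 0.06 in SK-BR-3. On the 6 HCC1419 arrays it had no signal well above background. The values after 12 and 24 h in MDA-MB-361 lay below every other array of this probe. Neither the late change over the lines (−0.17 ± 0.09, SE, limma adjusted p = 0.965) nor the difference between lines (adjusted p = 0.157) was called, so the course in MDA-MB-361 is 1 pooled RNA per time point without a test.

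BCL2L11 (BIM), a BH3-only protein that binds all pro-survival members, had 5 probes. The brightest, A_24_P122921 (chromosome 2, 111642363 to 111642422, hg18), was well above background on all 30 arrays. In MDA-MB-361 it gave −0.24, 0.17, −0.11, −0.74, −0.75 and −0.48 from 30 min to 24 h. In ZR-75-30 it gave 0.37, −0.17, 0.21, 0.39, 0.83 and 0.65. At 6, 12 and 24 h the ratios of these lines thus had opposite signs, while HCC1419 and HCC1954 stayed between −0.22 and 0.24 at all times and SK-BR-3 fell outside that range only at 24 h (−0.70). The difference between lines was called (limma adjusted p = 0.0273), and it was not called without ZR-75-30 (0.102) or without MDA-MB-361 (0.23). On the 1 scan day that ZR-75-30 and HCC1954 shared, the ratio was 0.47 ± 0.32 (SD, n = 3, at 30 min, 3 h and 12 h) and 0.16 ± 0.05 (n = 3, at 3, 6 and 24 h), so the times differed. The other 4 BCL2L11 probes were dimmer, ran between −0.58 and 0.23, and correlated with it at r = −0.26 to 0.13 over the 30 arrays.

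**Figure D3:**
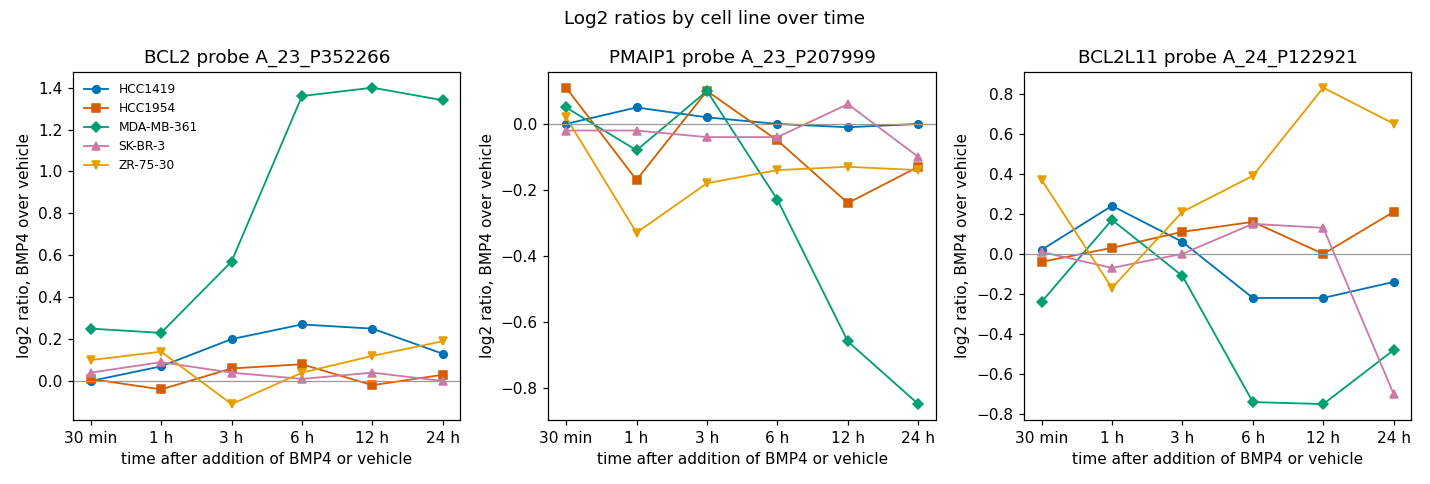
Log2 ratio of BMP4 over vehicle (vertical axis, scaled per panel) against time (horizontal axis) for 1 probe each of BCL2, PMAIP1 and BCL2L11, 1 coloured line per cell line and 1 array per point. In MDA-MB-361 BCL2 is at 1.34 to 1.40 from 6 h on, PMAIP1 reaches −0.85 at 24 h and BCL2L11 reaches −0.75 at 12 h.

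Of the other pro-survival genes, BCL2L1 (BCL-XL) had ratios mostly below 0, and the level depended on the line. Its brighter probe, A_23_P210886 (10 spots), averaged −0.38 ± 0.14 (SD, n = 6) in HCC1419, −0.38 ± 0.20 in ZR-75-30, −0.20 ± 0.12 in HCC1954, −0.13 ± 0.18 in SK-BR-3 and 0.05 ± 0.14 in MDA-MB-361. Lines differed (limma adjusted p = 0.00848), and the ratio was already −0.22 ± 0.27 (SD, n = 5) at 30 min, which the late change of 0.04 ± 0.08 (SE) leaves out. A dye bias of the probe cannot be told apart from an early response here. The second BCL2L1 probe followed the first (r = 0.79) at smaller ratios, from −0.42 to 0.21, and its difference between lines was not called (limma adjusted p = 0.0818).

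MCL1, a short-lived pro-survival protein, had 3 probes, all well above background on 30 arrays. ZR-75-30 was the lowest line on each of them. Its ratios averaged −0.21 ± 0.27 (SD, n = 6), −0.43 ± 0.24 and −0.33 ± 0.30 on A_24_P336754, A_24_P336759 and A_24_P319635. The lowest ZR-75-30 values were −0.85 at 12 h on the last 2 probes and −0.68 at 1 h on the first. In the other 4 lines the means lay between −0.08 and 0.22 on all 3 probes. The difference between lines was called for A_24_P336759 (limma adjusted p = 0.00216) and A_24_P319635 (0.0145) but not for A_24_P336754 (0.0706). For A_24_P319635 it was also not called in the series matrix (0.0573), without ZR-75-30 (0.637) or without MDA-MB-361 (0.103).

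The effectors BAX and BAK1, which form the pore, had no call of any kind on the ratio. At 30 min BAX A_23_P208706 (10 spots) was at −0.26 ± 0.13 (SD, n = 5), BAX A_23_P346311 at −0.30 ± 0.17 and BAK1 A_23_P145357 at −0.26 ± 0.17, below 0 in all 5 lines (limma adjusted p = 0.599, 0.393 and 0.614). At 24 h the means were −0.13 ± 0.24, −0.12 ± 0.15 and −0.12 ± 0.23. The late changes were 0.13 ± 0.10 (SE), 0.13 ± 0.10 and 0.09 ± 0.10. The first 2 BAX probes moved together over the arrays (r = 0.83).

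BIK, a BH3-only protein of the endoplasmic reticulum, had 1 probe with ratios from −0.39 to 0.32. It averaged 0.16 ± 0.09 (SD, n = 6) in MDA-MB-361, above 0 on all 6 arrays, and −0.27 ± 0.11 in HCC1954, below 0 on all 6. These 2 lines did not overlap, and the difference between lines was called (limma adjusted p = 0.00964). It was not called without HCC1954 (limma adjusted p = 0.0641) or without MDA-MB-361 (0.442). The late change was −0.02 ± 0.07 (SE).

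Counting each ratio of at least 2-fold in either direction on an array as an event, the 22 probes had 20 events. That was 3.03% of their 660 combinations of probe and array, beside 0.5% of all combinations on the arrays. The counts depended on the scaling: in the series matrix, whose values the authors normalized linearly, the 22 probes had 34 events, or 5.15%, beside 3.05% of all combinations. The events fell on 5 of the 22 probes, or 22.7%, beside 7.8% of all probes. BBC3 A_23_P90189 had 10 of the 20, BAX A_23_P346309 had 4, BCL2 A_23_P352266 had 3, BMF had 2 and BCL2 A_23_P208132 had 1. The 3 events of BCL2 A_23_P352266 and both events of BMF were in MDA-MB-361, where BMF just missed 2-fold after 6 h.

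One probe each of BBC3 and BAX swung far more widely than the other probes of the gene. The SD of the ratio over the 30 arrays was 0.94 against 0.19 and 0.18 for BBC3. For BAX it was 0.65 against 0.23 and 0.21. The BCL2 probes were less unlike, with 0.60 for A_23_P208132 and 0.41 for A_23_P352266, which had more events. BBC3 (PUMA), a BH3-only protein induced by p53, had 3 probes. Probe A_23_P90189 (chromosome 19, 52423274 to 52423333, hg18) was so bright that 0.512% of all probes were as bright or brighter, and it was saturated on 0 arrays. Its ratio was −0.89, −1.39, −1.78, −1.05, −1.38 and −0.21 from 30 min to 24 h in HCC1419. In SK-BR-3 it was −1.91, 1.23, −0.32, −0.71, −2.03 and 0.42. It thus swung from 2-fold lower to 2-fold higher and back between arrays of 1 line. In MDA-MB-361 it was 1.01, 1.43 and 1.29 at 6, 12 and 24 h.

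The other BBC3 probes, A_23_P382775 (52416014 to 52416073) and A_24_P305312 (52416927 to 52416986), lay between −0.53 and 0.38 on all 30 arrays and had no event. Their correlation with the bright probe was r = −0.15 and 0.72, so the second followed it at much smaller ratios and the first did not. Likewise BAX A_23_P346309 (chromosome 19, 54150541 to 54150600, hg18) ran from −1.68 to 1.05, while A_23_P346311, at 54150770 to 54150829, ran from −0.60 to 0.42 (r = 0.09), and A_23_P208706 ran from −0.61 to 0.21 (r = −0.04). BCL2 A_23_P208132 (chromosome 18, 59136115 to 59136150, hg18), annotated to the mRNA of the beta protein, ran from −2.16 (SK-BR-3, 12 h) to 0.87 and correlated with the alpha probe at r = 0.25.

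The 3 probes moved with one another, and other member probes followed them in part. BBC3 A_24_P305312 correlated with BAX A_23_P346309 at r = 0.69. BAK1 correlated with BBC3 A_23_P90189 at r = 0.65 and with BAX A_23_P346309 at r = 0.68. BBC3 A_23_P90189 and BAX A_23_P346309 correlated at r = 0.97, and BCL2 A_23_P208132 correlated with them at r = 0.70 and 0.78. The genes most like the BBC3 probe were FLJ22184, LCE5A and GRIN2D (all r = 0.99), and those most like the BCL2 probe were C21orf58 (r = 0.99), C6orf85 (0.98) and SPSB4 (0.97). In all, 281, 319 and 220 of 26614 probes had an r over 0.9 with the BBC3, BAX and BCL2 probe, against 0 with any of the other BBC3 and BAX probes. The difference between lines was called for the BBC3 probe (limma adjusted p = 0.0134), and not for its 2 other probes (0.133 and 0.0605). The call of the BBC3 probe was lost without HCC1419 (limma adjusted p = 0.126) and without MDA-MB-361 (0.215). With these 3 probes set aside, 5 of the 20 events of the family remained.

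**Figure D4:**
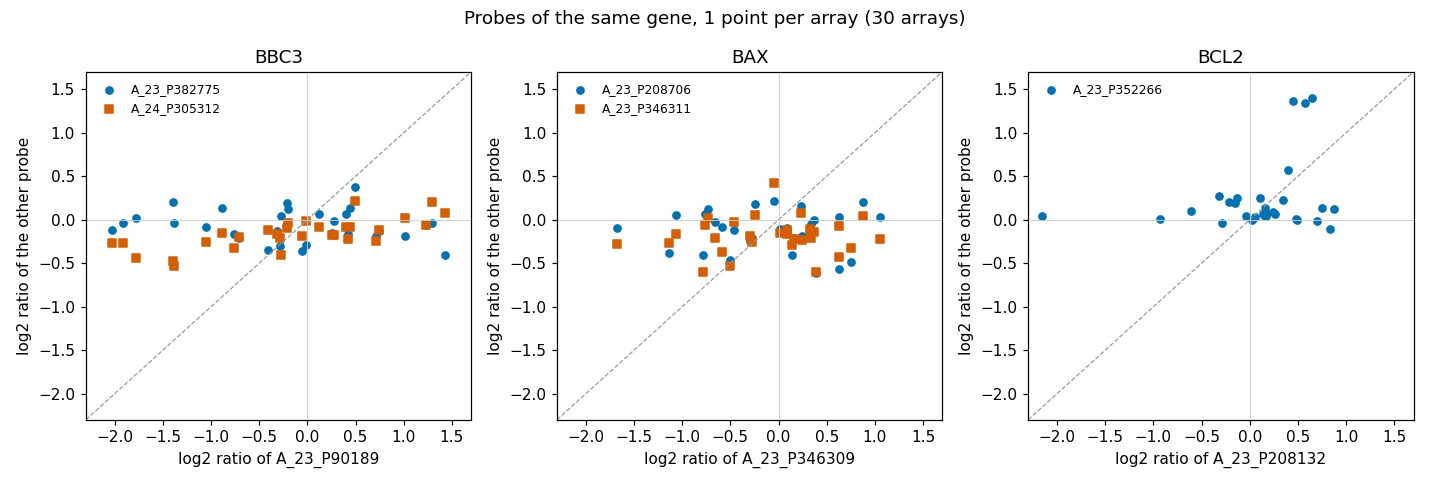
Log2 ratio of the swinging probe of BBC3, BAX and BCL2 (horizontal axis) against that of the other probes of the same gene (vertical axis), 1 point per array and probe, with the line of equality dashed. The other probes of BBC3 and BAX stay between −0.61 and 0.42 while the swinging probes of the 3 genes span −2.16 to 1.43.

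The level of these genes in vehicle-treated cells, read as log2 Cy3 signal after normalization between arrays, showed which members each line expressed without added BMP4. It differed between lines for 19 of the 22 probes (limma moderated F test), beside 73.1% of all probes, so most genes on the array did so. Each line has 6 arrays, all of different times, and levels are compared between lines for 1 probe only. Between HCC1419 and the other lines 47.8% (SK-BR-3), 43.2% (MDA-MB-361), 44.2% (ZR-75-30) and 49.5% (HCC1954) of all probes were called. The shares were 45.4% (SK-BR-3), 51.3% (MDA-MB-361) and 40.9% (ZR-75-30) between HCC1954 and the remaining lines, 53.9% and 46.8% between MDA-MB-361 and SK-BR-3 or ZR-75-30, and 43.6% between SK-BR-3 and ZR-75-30.

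PMAIP1 had the widest range. It ran from 9.84 to 11.16 (median 10.49) in HCC1954, from 8.49 to 8.76 (8.55) in MDA-MB-361, from 7.43 to 7.95 (7.62) in ZR-75-30 and from 7.01 to 7.76 (7.35) in SK-BR-3. The first 2 of these lines lay apart from each other and from the rest. In HCC1419, from 6.34 to 6.42, it was not well above background. HCC1954 was at least 15.1-fold above HCC1419, set against the lowest signal well above background (limma adjusted p = 7.03e-18), and 3.71-fold above MDA-MB-361 (1.36e-11). ZR-75-30 and SK-BR-3, next to each other in the order, did not pass the test (0.32 ± 0.13, SE, limma adjusted p = 0.0546).

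BCL2, by its alpha probe, was at 7.37 to 8.06 (median 7.79) in HCC1419 and 7.28 to 7.86 (7.74) in MDA-MB-361, which did not pass the test against each other (0.14 ± 0.09, SE, limma adjusted p = 0.249). Both were at least 1.89-fold to 2.23-fold above the 3 lines with no signal well above background, at 6.36 to 6.79. The other BCL2 probe, A_23_P208132, gave another order, with means of 11.41 in SK-BR-3, 9.69 in HCC1419 and 9.56 in MDA-MB-361, the lowest. Its difference over all lines was not called (limma moderated F test, adjusted p = 0.14). SK-BR-3 against MDA-MB-361 was called (limma adjusted p = 0.04). BAK1 was lowest in MDA-MB-361, at 8.75 to 9.22 (median 9.01), and SK-BR-3, at 10.87 to 12.29 (11.64), was 6.06-fold above it (limma adjusted p = 1.68e-12). The ranges of MDA-MB-361 and of the other 4 lines did not overlap.

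BBC3 A_23_P382775 was lowest in HCC1954, at 9.37 to 9.86, and between 10.86 and 12.33 in the others, where HCC1419 lay above HCC1954 by 2.46 ± 0.12 (SE, log2, limma adjusted p = 1.74e-14). BCL2L11 A_24_P122921 was also lowest in HCC1954, at 9.62 to 10.60 (10.18), and highest in MDA-MB-361, at 11.63 to 12.12 (12.02), a difference of 1.79 ± 0.15 (limma adjusted p = 1.84e-10). The other probes of these genes did not all give this order. HCC1954 was also lowest on BBC3 A_24_P305312 but second highest on BBC3 A_23_P90189, where lines were not called. On the 4 dimmer BCL2L11 probes HCC1954 was the highest line, with called differences from all other lines on A_23_P425954 (by 0.67 over MDA-MB-361, limma adjusted p = 9.13e-09) and A_23_P309991 (by 0.56, adjusted p = 2.59e-08). BCL2L1 A_23_P210886 and BIK were highest in HCC1419, with medians of 9.98 and 10.44. MCL1 A_24_P336754 had medians of 13.19 (MDA-MB-361) to 14.54 (HCC1954), and BAX A_23_P208706 of 11.96 (SK-BR-3) to 13.63 (HCC1954). On BAX A_23_P346309, by contrast, SK-BR-3 had the highest median (12.48) and MDA-MB-361 the lowest (10.51).

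BMF in vehicle-treated cells had its highest median in MDA-MB-361 (9.25), followed by SK-BR-3 (8.65), ZR-75-30 (8.56), HCC1419 (8.30) and HCC1954 (8.21), and all neighbours in this order overlapped. MDA-MB-361 was above HCC1954 by 1.26 ± 0.27 (SE, limma adjusted p = 0.000405). The line with the highest vehicle level of BMF also had the highest mean ratio, and the line with the lowest level had the lowest ratio, as a description over 5 lines. The lines between them did not keep the order. SK-BR-3, next to MDA-MB-361 in level, had a mean ratio of 0.30, below ZR-75-30 (0.52) and HCC1419 (0.31). Over time the vehicle level changed for 0 of the 22 probes in limma (late change), beside 0.00488% of all probes.

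**Figure D5:**
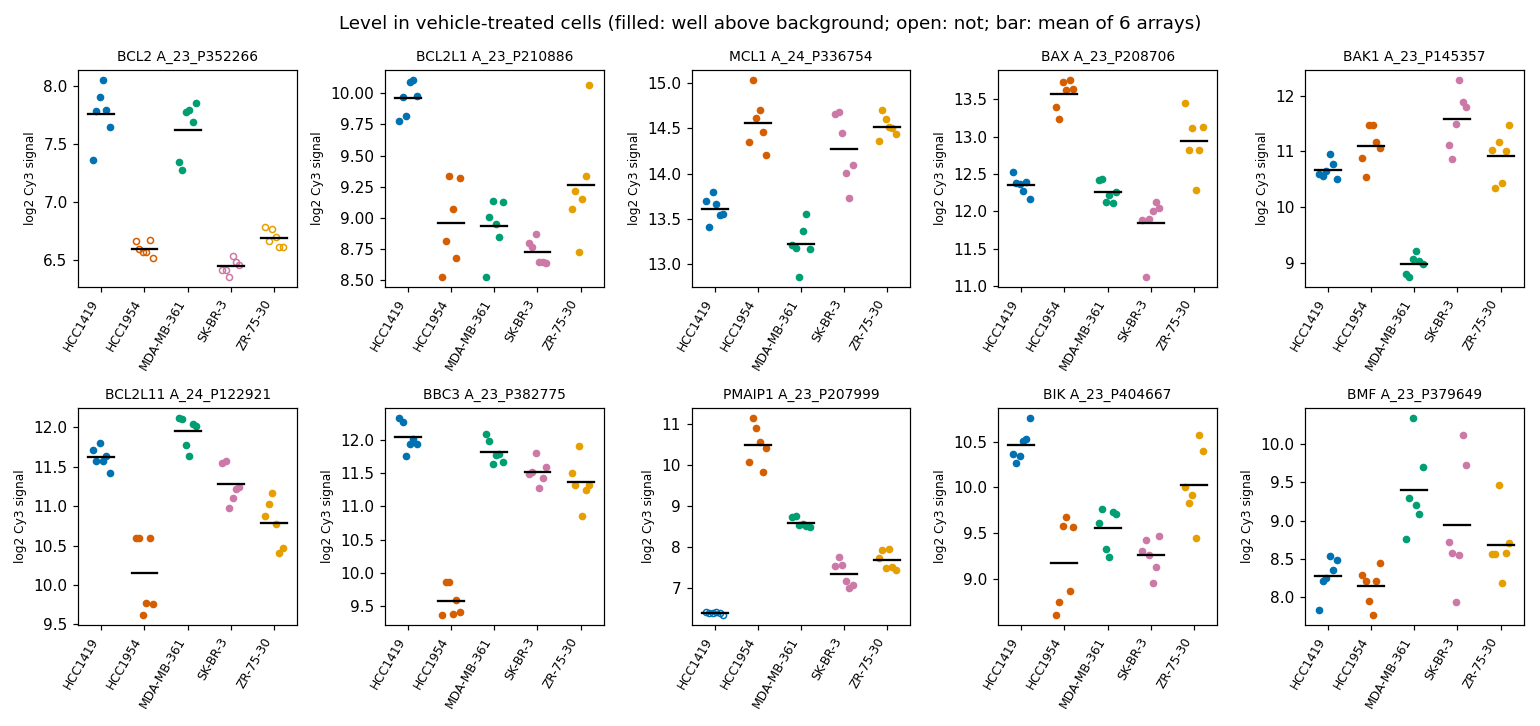
Log2 Cy3 signal in vehicle-treated cells (vertical axis, scaled per panel) by cell line, 1 probe per gene, 1 point per array (6 per line, 1 per time point), filled where well above background, with the mean as a bar. For BCL2 and BBC3 the probe was chosen after its values were seen. PMAIP1 is highest in HCC1954 and not above background in HCC1419, and BAK1 is lowest in MDA-MB-361.

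For the other genes of the cell death pathway listed, no late change was called, beside 0.0927% of all probes. At 24 h 1 of 12 other BCL2 family genes and 2 of 16 p53 target genes were called. In the caspase and FOXO lists 0 were called at 24 h, beside 1.58% of all probes. Differences between lines were called more often. Of 13 other BCL2 family genes, 12 were on the array and 0 had a called late change. The smallest unadjusted limma p among them were 0.133 for HRK (0.50 ± 0.32, SE) and 0.134 for BNIP3 (0.10 ± 0.07). At 24 h BCL2L12 was called lower (−0.38 ± 0.21, SD, n = 5 lines, limma adjusted p = 0.00161). The ratio differed between lines for 7 of the 12, BCL2A1, BCL2L13, BOK, BID, BAD, HRK and BNIP3 (limma adjusted p from 0.00425 for BCL2A1 to 0.0308 for BCL2L13). Of 18 caspases, apoptosome genes and inhibitors of apoptosis, 0 had a called late change, and BIRC5 (survivin) had the smallest p, at −0.24 ± 0.10 (SE, limma adjusted p = 0.965). The ratio differed between lines for APAF1, CASP9, BIRC2, HTRA2 and ENDOG, among others (limma adjusted p = 0.00724 for APAF1 and 0.036 for HTRA2).

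Of 16 p53 target genes 0 had a called late change. CDKN1A, a cyclin-dependent kinase inhibitor, had the smallest p (0.43 ± 0.15, SE, limma adjusted p = 0.828), above 0 in all 5 lines. At 24 h TP53I3 (0.19 ± 0.17, SD, n = 5) and TP53INP1 (0.39 ± 0.16) were called higher (limma adjusted p = 0.0301 for each), beside 1.06% of all probes. The ratio differed between lines for 5 of the 16, CDKN1A, ZMAT3, FDXR, AEN and XPC (limma adjusted p from 0.00359 for FDXR to 0.0245 for ZMAT3). Of 12 FOXO and stress factors that act upstream of BH3-only genes 0 had a called late change, and FOXO1, a transcription factor of this group, had the smallest p (0.44 ± 0.15, SE, limma adjusted p = 0.783). The ratio differed between lines for 3 of them, ATF4 (limma adjusted p = 0.0051), FOXO3 (0.00585) and TRIB3 (0.0201). Of all probes 22.2% were called between lines. The medians of the late change were 0.01 for the other BCL2 family genes, −0.01 for the caspase list, 0.03 for the p53 list and 0.04 for the FOXO list, beside 0.01 over all probes.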

How the data were processed

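RNA of BMP4-treated (Cy5) and vehicle-treated (Cy3) cells was hybridized to 30 Agilent whole human genome arrays, 1 per line and time point, without dye swap. Per the file headers, the deposited signal intensities and the log10 ratios of Cy5 over Cy3 were made with Feature Extraction 9.5.1.1, on probes placed on hg18. The authors also deposited a series matrix of log2 ratios, whose columns had medians of 0 and correlated at 0.997 or more with the log2 ratios of the processed signals (direction BMP4 over vehicle). The ratio scale is therefore known, and the exact centring used by the authors is not.

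Mean and local background signals were corrected by normexp (offset 50), loess-normalized within arrays and averaged over the spots of a probe, leaving out control spots and 5466 outlier spots. Vehicle levels are Cy3 signals after Aquantile normalization. Models were fitted to all 41000 probes with limma 3.58.1 in R 4.3.3. Changes over time had the line as a block, tests against 0 had none, and p-values were adjusted by Benjamini-Hochberg over all probes. The pairing comes from the lines, which are the same cells throughout. Deviations from the time means correlated at a mean r of 0.232 over 75 pairs of arrays within lines and −0.0884 between lines, unevenly, from 0.0406 in SK-BR-3 and 0.0672 in HCC1954 to 0.575 in MDA-MB-361. The number of arrays and their signal over background limit the precision, and each array is 1 pool of 3 treatments. For ratios against 0, p-values cover the spread between lines at a time point, pooled over the times. For changes over time, the block takes out the level of each line. The p-values then cover the spread that remains between arrays once line and time are accounted for. In both, the arrays of a line count as independent, so these p-values are not drawn from 5 late changes alone. For differences between lines, p-values cover the spread among the arrays of a line, which are its time points. Those p-values hold no repeated culture series of a line. The scripts were tested on simulated data. Alternatives were a single factor per array, the software's ratios, the series matrix, no background subtraction, outlier spots kept, dim probes left out, array weights, other blocks, other scalings of Cy3 and each line left out.

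The 10 genes and the gene lists were chosen with earlier results of these data known. All probes of the 10 genes are reported, and of the other lists the counts, the genes called for the late change, at 24 h or between lines, and up to 3 genes with the smallest p. Some genes of the lists are not reported here. Genes most like a member are given by Pearson correlation for members with large ratio SDs, and for the swinging BAX probe only the number of probes like it. Upstream sequences came from RefSeq (GRCh38.p14). Probe sequences and proteins were not used here.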

Additional observations from a re-analysis of the deposited data

Results flagged for a closer look

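In 10 of 132 sets of 5 lines (1 probe at 1 time each) 1 line lay apart from the other 4 by Dixon's test, which chance alone gives in about 1 of 20 sets. MDA-MB-361 was that line in 5 sets, ZR-75-30 in 4 and HCC1419 in 1. For the BCL2 alpha probe MDA-MB-361 was at 1.36 after 6 h, 1.40 after 12 h and 1.34 after 24 h, while the other lines were between −0.02 and 0.27. In 3 of those 4 lines the probe was not above background in either channel, so their ratios near 0 carry no measured level, and the same holds for PMAIP1 in HCC1419. PMAIP1 was at −0.85 in MDA-MB-361 after 24 h, with the others between −0.14 and 0.00, and BIK was at 0.17 in that line after 30 min, with the others between −0.15 and −0.11. In ZR-75-30, MCL1 A_24_P336754 was at −0.68 and BCL2L11 A_23_P309996 at −0.21 after 1 h, BAX A_23_P208706 at −0.57 after 12 h and BAX A_23_P346311 at −0.60 after 30 min. BAX A_23_P346309 was at −1.06 in HCC1419 after 3 h, with the others between 0.02 and 0.39. Each of these values is 1 array.

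The ratio differed between lines for 8 probes, with limma adjusted p of 0.00185 for BCL2 A_23_P352266, 0.00216 for MCL1 A_24_P336759, 0.00256 for BMF, 0.00848 for BCL2L1 A_23_P210886, 0.00964 for BIK, 0.0134 for BBC3 A_23_P90189, 0.0145 for MCL1 A_24_P319635 and 0.0273 for BCL2L11 A_24_P122921. The part of slides, which never held more than 1 line, cannot be told apart from that of the lines.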

How the results depend on the processing

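The late change of BMF was 0.66 to 0.96 over 14 alternatives (limma adjusted p from 1.67e-05 to 0.102) and was called in 13 of them. Without the replicate block, which here is the line, it was 0.72 and not called, so that 0 probes had a called late change and 0 changed over time. With scan day as a further block 0 changed over time, while BMF kept a late change of 0.69 (adjusted p = 0.00628). With a single factor per array in place of loess, 0 probes changed over time, 1 combination of probe and time was called against 0 in place of 3, 0 probes differed between lines in place of 8, and there were 33 events of 2-fold size in place of 20. The software's log ratios gave 32 events and the series matrix 34. Of all combinations of probe and array, 2.01%, 2.85% and 3.05% were events in these 3 settings, in place of 0.5%, and of the member combinations 5%, 4.85% and 5.15%, in place of 3.03%. The number called against 0 was 6 with array weights and 6 with the replicate block. The cause of these shifts was not tested. When each line was left out in turn, there were 0 (without HCC1419, MDA-MB-361 or SK-BR-3) to 1 probes that changed over time, 1 to 2 called against 0, 0 (without MDA-MB-361) to 10 that differed between lines, and a late change of BMF of 0.67 to 0.79. The ratio of BMF at 24 h was called in 13 of 13 alternatives (0.58 to 0.84). The vehicle level differed between lines for 15 to 20 probes over 9 alternatives. Array number and signal over background limit all these values: for the BCL2 alpha probe 18 of 30 arrays gave no signal well above background.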

Other observations

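In MDA-MB-361 the ratios of 4 genes described above lay away from 0 from 6 h on. BCL2 (alpha probe) and BMF were higher with BMP4, and PMAIP1 and BCL2L11 A_24_P122921 were lower. The swinging probes were set aside here, although BBC3 A_23_P90189 reached 1.43 and BAX A_23_P346309 reached 1.05 in this line. A shared start at 6 h was not seen. At 3 h BCL2 was already at 0.57 and BMF at 0.85, with BCL2L11 at −0.11 and PMAIP1 at 0.10. BMF was above 0 in all 5 lines from 3 h on. The other 4 BCL2L11 probes did not follow A_24_P122921 (r = −0.26 to 0.13 over the 30 arrays). The MDA-MB-361 values describe pooled RNA of 1 culture series, with 1 array per time, and carry no test. Arrays of this line at 30 min and 1 h were on another slide than the later ones, so slide and time cannot be told apart. The genes and probes were chosen for this description after their values were seen.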
